A study of Mus musculus with 6 samples.

Results

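The simple epithelium keratins are the intermediate filament genes typical of single-layered epithelia, here *Krt7*, *Krt8*, *Krt18*, *Krt19*, *Krt20* and *Krt23*. Their 7 probes were chosen by gene name among 55681 non-control probes, which carry 34298 gene names, so 6 genes of 34298 are described. *Krt8* had 2 probes and each of the other genes had 1. They were measured in mouse organoids, small three-dimensional epithelial cultures grown from stem cells in a gel, by single-color Agilent arrays. The 3 esophagus organoid arrays and the 3 stomach organoid arrays carry the same mouse numbers in the labels, 1, 2 and 4, and all cultures were at passage 0. Harvest was on day 8, or on day 7 for the stomach organoids of mouse 4, and every sample is titled a control, with no mutant allele named in the labels. The study's methods name wild-type C57BL/6 female mice, esophageal cells freed with collagenase and trypsin substitute, and glands of the stomach corpus. Both media held EGF, noggin, FGF-10, nicotinamide, N-acetylcysteine, a TGF-β receptor kinase inhibitor and a ROCK inhibitor. The stomach medium also held WNT3A and R-spondin1 conditioned medium and gastrin, whereas the esophagus medium held forskolin, so tissue and medium cannot be told apart in any comparison.

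Keratin filaments are built from pairs of 1 type II and 1 type I chain, which depend on each other for stability. Simple epithelia such as the gastric lining use the type II keratins *Krt7* and *Krt8* with the type I keratins *Krt18*, *Krt19* and, in surface cells of the gut, *Krt20*. Stratified squamous epithelia such as the esophagus use other pairs, *Krt5* with *Krt14* in basal cells and *Krt4* with *Krt13* above them. In the mouse, most type II genes lie together on one chromosome and most type I genes on another.

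The probe sequences show which stretch of each transcript was read. They are given for the 4 keratins brightest in the stomach, from probes taken to lie in coding sequence. That position was not checked against an annotation of the coding range. Coordinates are those of the files, on mouse build mm9. The *Krt7* probe (NM_033073) lies on the plus strand at chr15:101253718-101253777, and the *Krt8* probe (NM_031170) on the minus strand at chr15:101828827-101828886. The *Krt18* probe (NM_010664) lies on the plus strand at chr15:101862341-101862400, and the *Krt19* probe (NM_008471) on the minus strand at chr11:100002392-100002451. For *Krt18* only the first 52 bases are shown, up to TGA in capitals, which was taken as the stop codon.
Krt7: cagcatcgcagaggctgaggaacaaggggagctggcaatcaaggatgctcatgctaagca
Krt8: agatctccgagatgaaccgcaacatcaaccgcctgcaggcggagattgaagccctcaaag
Krt18: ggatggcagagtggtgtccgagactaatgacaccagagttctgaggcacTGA
Krt19: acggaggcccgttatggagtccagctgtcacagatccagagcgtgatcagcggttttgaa
The 3 other probes are not printed because they may lie in untranslated sequence. The second *Krt8* probe (ENSMUST00000023952.9, minus strand, chr15:101827138-101827197) starts at base 1889 of its transcript, 3′ of the first, which starts at base 1037. It holds AATAAA, the letters of the polyadenylation signal. The *Krt20* probe (NM_023256) lies on the minus strand at chr11:99289776-99289835 and the *Krt23* probe (NM_033373) on the minus strand at chr11:99339393-99339452. GC content was 55.0% in the 4 printed probes and 40.0%, 43.3% and 45.0% in the *Krt8* 3′, *Krt20* and *Krt23* probes.

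By gene order, 4 of the 6 keratins form neighbouring pairs. In the RefSeq gene table of GRCm38.p6, *Krt8* and *Krt18* are adjacent protein-coding genes between *Krt78* and *Eif4b*, and *Krt18* is the type I gene that lies beside the type II cluster. *Krt20* and *Krt23* are adjacent between *Krt12* and *Krt39*, *Krt19* lies between *Krt15* and *Krt9*, and *Krt7* lies between *Krt80* and *Krt87*. The promoters of both pairs are shown because the genes of the first pair were both higher in stomach organoids, while of the second pair only *Krt20* was called. They are RefSeq sequences of GRCm38.p6, 250 bases before to 30 after the annotated start, read in the direction of the gene. They lie at chr15:102004313-102004592 (minus strand, *Krt8*), chr15:102027966-102028245 (plus strand, *Krt18*), chr11:99438124-99438403 (minus strand, *Krt20*) and chr11:99493091-99493370 (minus strand, *Krt23*). Capitals mark matches, on either strand, to 7 short motifs. They were TATAAA for the TATA box, GGGCGG for the GC box and CCAAT for the box of that name. Binding motifs of factor families were TGANTCA for AP-1, AGATAA for the GATA family, TGTTTAC for the forkhead family and GGAAGT for the ETS family.
Krt8: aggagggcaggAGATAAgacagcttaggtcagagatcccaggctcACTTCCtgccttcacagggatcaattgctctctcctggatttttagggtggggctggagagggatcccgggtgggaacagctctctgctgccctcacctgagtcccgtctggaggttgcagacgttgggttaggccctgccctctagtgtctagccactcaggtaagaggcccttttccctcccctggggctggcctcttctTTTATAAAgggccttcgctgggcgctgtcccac
Krt18: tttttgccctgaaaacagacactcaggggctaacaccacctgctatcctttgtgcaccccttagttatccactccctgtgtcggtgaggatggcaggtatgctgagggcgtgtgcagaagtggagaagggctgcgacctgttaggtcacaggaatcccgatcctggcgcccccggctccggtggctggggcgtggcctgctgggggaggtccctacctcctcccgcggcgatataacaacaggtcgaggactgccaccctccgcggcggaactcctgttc
Krt20: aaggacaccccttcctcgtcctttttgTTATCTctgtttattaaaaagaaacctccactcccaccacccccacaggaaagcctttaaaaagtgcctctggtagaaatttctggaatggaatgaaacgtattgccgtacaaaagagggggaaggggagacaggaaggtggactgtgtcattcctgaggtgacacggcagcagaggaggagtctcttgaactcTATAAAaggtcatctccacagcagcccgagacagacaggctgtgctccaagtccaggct
Krt23: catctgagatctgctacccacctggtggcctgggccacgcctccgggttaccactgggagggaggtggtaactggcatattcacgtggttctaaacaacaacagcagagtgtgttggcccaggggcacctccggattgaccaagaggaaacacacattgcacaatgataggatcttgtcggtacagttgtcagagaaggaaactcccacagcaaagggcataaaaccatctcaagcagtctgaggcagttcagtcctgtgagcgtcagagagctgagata
TATAAA was found in the *Krt8* promoter, as 2 overlapping matches on opposite strands, and once in that of *Krt20*, against 13.1% of 32851 promoters of the same length. AGATAA was also found in these 2 promoters (10.7% of all promoters), and GGAAGT in those of *Krt7* and *Krt8* (22.3%). The *Krt7* promoter, which is not printed, held 4 matches to GGGCGG, a motif found in 34.7% of all promoters. The *Krt18* and *Krt23* windows held none of the 7 motifs. CCAAT (36.1% of all promoters), TGANTCA (7.46%) and TGTTTAC (3.49%) were in none of the 5 promoters available. No promoter of *Krt19* was used here. A match is a description of the letters and not a bound site.

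The values are the deposited log2 intensities, which the authors background corrected and quantile normalized. The tissue difference of every probe was tested with limma over all 6 arrays, with Benjamini-Hochberg adjustment of the 55681 p-values together. A probe was called at an adjusted p under 0.05. Log2 fold changes are esophagus minus stomach, so negative values are higher in the stomach. Each member, its values per array and its call are given below in the order type II, then type I. A probe was counted as well above background where the scanner software marked its spot so, and as at background where it did not. On the esophagus arrays 45.5% to 47.3% of spots were well above background and on the stomach arrays 46.7% to 51.1%, and no spot was saturated. Between arrays, Pearson's r across probes, which are not independent replicates, lay between 0.986 and 0.994 for stomach pairs, between 0.979 and 0.985 for esophagus pairs and between 0.923 and 0.94 for pairs of unlike tissue. The number of arrays limits the precision.

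The tissue labels were checked against marker genes. Of 10 squamous markers, 9 had a probe called higher in esophagus organoids, and *Ivl* was not called. Over the brightest probes of all 10, the mean log2 value was 12.84 to 14.17 in the esophagus against 6.08 to 6.39 in the stomach. *Trp63*, the squamous lineage factor, had 3 probes higher in the esophagus and 1, its brightest, higher in the stomach. All 4 gastric pit markers were higher in stomach organoids, with means of 14.17 to 15.13 against 4.90 to 5.20 in the esophagus, as were 4 of 5 neck and chief cell markers. Of 3 parietal cell markers only *Atp4a* was called, and *Atp4b* and *Slc26a7* stayed at background on all 6 arrays. None of 5 endocrine, 8 fibroblast and muscle or 5 immune markers was called. Of 4 endothelial markers 1 was called, *Vwf*, an estimated 1.55-fold higher in the stomach with its esophagus values at background. Mesothelial cells also make simple keratins, and 2 of 5 mesothelial markers were higher in the stomach. They were *Msln* (-10.98, with 1 of 3 esophagus arrays well above background) and *Upk3b* (an estimated 2.47-fold, with its esophagus values at background). *Wt1*, *Lrrn4* and *Upk1b* stayed at background on all 6 arrays. Of 6 intestinal markers, 3 were higher in the stomach, and *Cdx1* stayed at background. The 3 were *Cdx2* (at least 22.2-fold), *Vil1* (an estimated 278-fold, with its esophagus values at background) and *Lgals4* (-7.30). *Muc2* was not called, nor was *Fabp2*, whose log2 fold change was toward the esophagus (1.90, limma adjusted p = 0.112). The genes singled out here by name were chosen after their values were seen.

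In stomach organoids 5 of the 6 simple keratins were higher than in esophagus organoids, by 5.04 to 11.24 log2 units, and none was called higher in the esophagus. The exception was *Krt23*, which was bright in both tissues and was not called. For comparison, 8.33% of all 34298 gene names had a probe called higher in the stomach and 7.88% had one called higher in the esophagus. Counted by probe, 6 of 7 member probes were called against 12.2% of all probes, 6.22% of probes being higher in the stomach and 5.94% higher in the esophagus. Without the stomach organoids of mouse 1 the count of all called probes went from 6770 to 4091, and without those of mouse 2 to 4152, while 6 member probes were called in both fits. In the same 6 probes all 3 stomach arrays lay above all 3 esophagus arrays, an arrangement found in 13.4% of the 55641 probes measured on all arrays, and the reverse in 15.2%. By the threshold of the study's methods, an unadjusted p under 0.05 with a 1.5-fold change, the same 6 member probes passed, against 18.1% of all probes, with 8.85% higher in the stomach and 9.28% higher in the esophagus. The median log2 fold change was -5.45 over the 6 genes and 0.032 over all gene names. In bulk organoid RNA, fewer cells that express a keratin and less keratin RNA per cell cannot be told apart.

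*Krt8*, the type II keratin found in nearly all simple epithelia, had the largest tissue difference of the 6. With its brighter probe (ENSMUST00000023952.9) the values were 5.50, 5.83 and 5.21 in the esophagus organoids of mice 1, 2 and 4 and 16.71, 16.65 and 16.88 in their stomach organoids. The stomach arrays lay together at the bright end of the scale and the esophagus arrays at its dim end, with no overlap. In raw mean intensity, before any normalization, the spot read 53.0, 63.6 and 39.4 in the esophagus and 110880, 55419 and 142224 in the stomach. The mean log2 value was 5.51 ± 0.31 (SD, n = 3) in the esophagus and 16.75 ± 0.12 (SD, n = 3) in the stomach. The limma log2 fold change was -11.24 ± 0.19 (standard error, adjusted p = 5.93e-08), and it ran from -12.99 to -10.43 over the alternatives. Only the esophagus array of mouse 2 was well above background, so the dim side of this fold of 2412 rests on values near background.

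The second *Krt8* probe (NM_031170) gave log2 values of 4.40, 5.17 and 4.38 in the esophagus and 14.81, 14.88 and 14.43 in the stomach. None of the esophagus arrays was well above background and all stomach arrays were, which puts the stomach level at least 972-fold higher. This bound sets the stomach mean against, on each esophagus array, the higher of the probe's own value and the dimmest value of any probe that stood well above background there. It counts no sampling error. Where the probe's own values are the higher throughout, the bound equals the fitted fold and is given as an estimate. The limma adjusted p was 2.94e-07, and both probes had the same direction. The bound holds for the deposited values and moves with the background correction, since the fitted log2 fold change of this probe was -8.71 with scanner intensities and an offset of 50.

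*Krt7*, a type II keratin of ducts and glands, had the second largest difference. Its log2 values were 7.40, 6.93 and 6.63 in the esophagus organoids of mice 1, 2 and 4 and 14.79, 14.74 and 15.31 in their stomach organoids. The groups did not overlap, and unlike *Krt8* the probe stood well above background throughout. The mean was 6.99 ± 0.39 (SD, n = 3) in the esophagus and 14.94 ± 0.32 (SD, n = 3) in the stomach. Its limma log2 fold change was -7.96 ± 0.25 (standard error, adjusted p = 7.57e-07), or 248.7-fold, at rank 59 of 55681 probes when all are ordered from the most stomach-biased. Raw mean intensities were 173.4, 134.8 and 96.5 in the esophagus and 27323, 12908 and 44998 in the stomach.

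**Figure D1:**
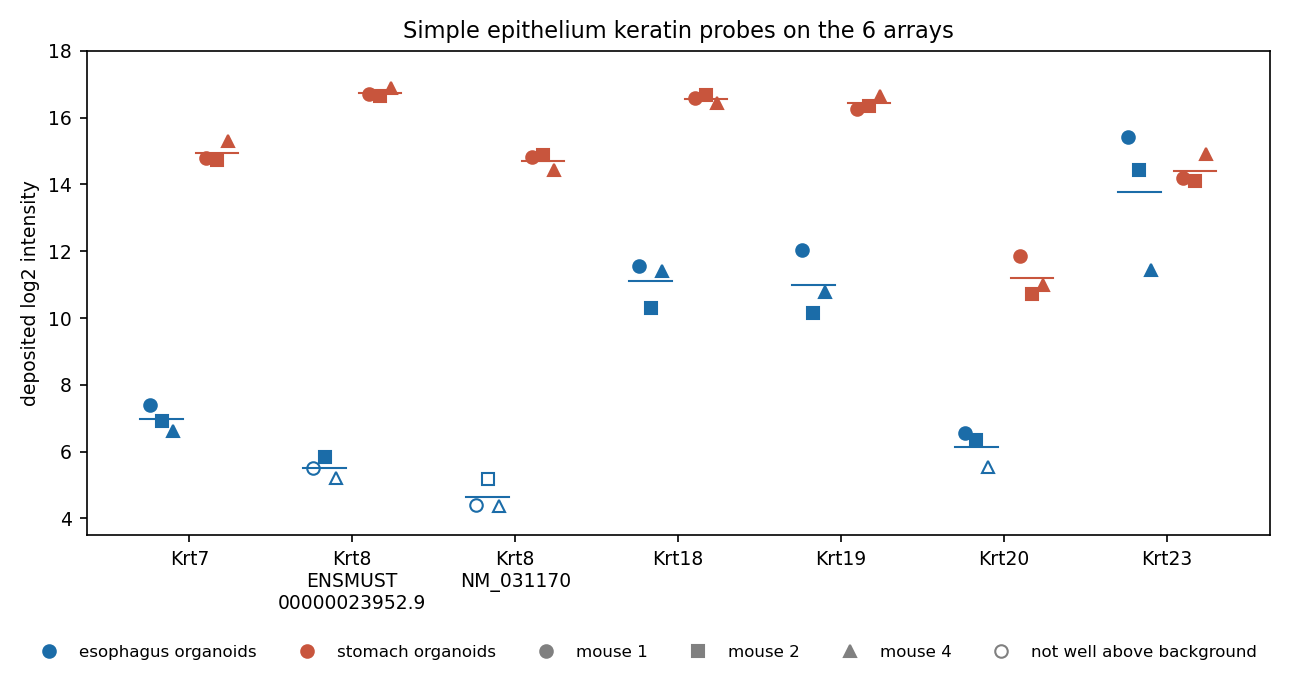
Deposited log2 intensity (vertical axis) of the 7 simple keratin probes (horizontal axis) on each of the 6 arrays. Blue points are esophagus and red points stomach organoids, the shape gives the mouse, open points were not well above background, and short lines are group means. The groups are apart for 6 probes and overlap for *Krt23*, whose esophagus values run from 11.45 to 15.42.

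*Krt18*, the type I chain that pairs with *Krt8*, was clearly measured in esophagus organoids as well. Its log2 values were 11.57, 10.31 and 11.41 in the esophagus and 16.60, 16.66 and 16.44 in the stomach. All 6 arrays were well above background, the stomach arrays lay above the esophagus arrays, and the esophagus organoids of mouse 2 were the lowest. The mean was 11.10 ± 0.69 (SD, n = 3) in the esophagus and 16.57 ± 0.11 (SD, n = 3) in the stomach. The limma log2 fold change was -5.47 ± 0.32 (standard error, adjusted p = 2.27e-05), or 44.26-fold.

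*Krt19*, a type I keratin of simple epithelia that is also made in the basal layer of some stratified epithelia, had a fold change close to that of *Krt18*. Its log2 values were 12.04, 10.14 and 10.78 in the esophagus and 16.26, 16.35 and 16.66 in the stomach. Mouse 2 was again the lowest of the esophagus arrays, mouse 1 the highest, and the groups did not overlap. The mean was 10.99 ± 0.97 (SD, n = 3) in the esophagus and 16.42 ± 0.21 (SD, n = 3) in the stomach, with all 6 arrays well above background. The limma log2 fold change was -5.43 ± 0.43 (standard error, adjusted p = 0.000126), or 43.25-fold.

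*Krt20*, the type I keratin of mature gastric pit and intestinal surface cells, had log2 values of 6.57, 6.35 and 5.53 in the esophagus and 11.87, 10.73 and 10.99 in the stomach. The groups did not overlap. The esophagus array of mouse 4 was the only one not well above background, and among the stomach arrays mouse 1 stood highest. The mean was 6.15 ± 0.55 (SD, n = 3) in the esophagus and 11.19 ± 0.60 (SD, n = 3) in the stomach. The limma log2 fold change was -5.04 ± 0.36 (standard error, adjusted p = 7.23e-05), or 32.95-fold. It was -5.83 with 75th percentile scaling of the background-subtracted intensity and -4.46 with an offset of 50. By rank toward the stomach *Krt18*, *Krt19* and *Krt20* stood at 203, 208 and 250 of 55681 probes.

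*Krt23*, a type I keratin known from pancreatic and colon cancer cells, did not share this pattern. Its log2 values were 15.42, 14.43 and 11.45 in the esophagus organoids of mice 1, 2 and 4 and 14.20, 14.09 and 14.92 in their stomach organoids. The esophagus organoids of mouse 4 were the lowest of all 6 arrays, those of mouse 1 the highest, and the groups overlapped. The mean was 13.77 ± 2.07 (SD, n = 3) in the esophagus and 14.40 ± 0.45 (SD, n = 3) in the stomach. The log2 fold change was -0.64, with a 95% interval from -2.71 to 1.44 that holds differences in either direction (standard error 0.89, limma adjusted p = 0.75). All 6 arrays were well above background, and raw mean intensities in the esophagus were 51579, 23446 and 3283. The esophagus array of mouse 4 was also the only array on a second slide, so that a fit with the slide as a block and a fit within the first slide both amount to leaving it out. There the log2 fold change of *Krt23* took the opposite sign, 0.52 with a standard error of 0.36, and was again not called (limma adjusted p = 0.473). For this array, mouse and slide cannot be told apart.

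**Figure D2:**
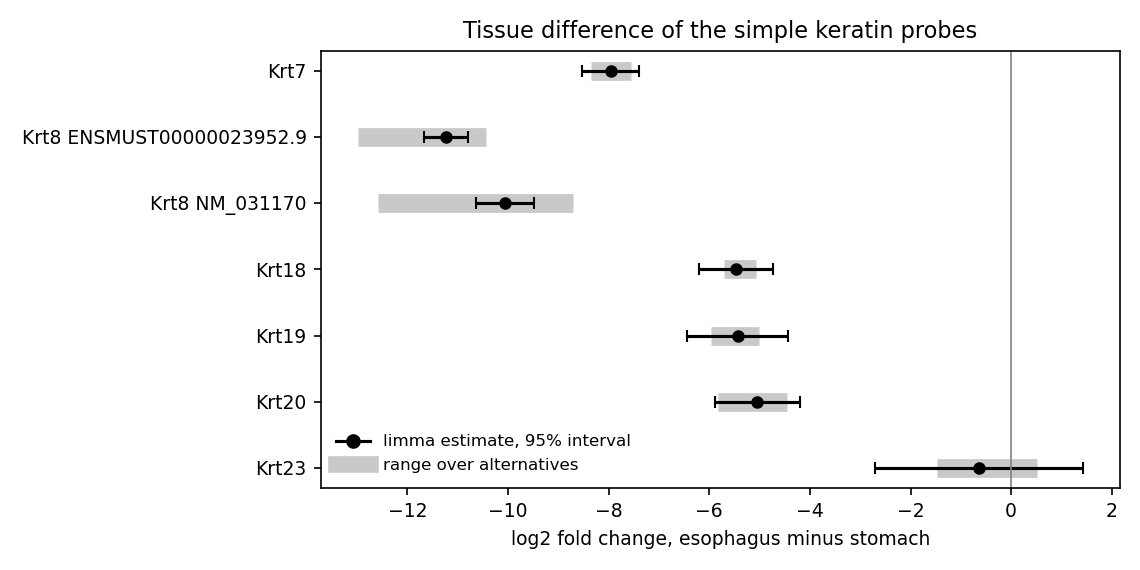
Log2 fold change, esophagus minus stomach (horizontal axis), of each simple keratin probe, with the limma estimate and its 95% interval in black and the range over 16 alternative settings in grey. Some of these settings cannot move the estimate, and the slide block repeats the fit without the esophagus organoids of mouse 4. The 6 probes of *Krt7*, *Krt8*, *Krt18*, *Krt19* and *Krt20* lie below 0 throughout, whereas the grey range of *Krt23* runs from -1.47 to 0.52. For the *Krt8* probe NM_031170 the plotted value is a fitted one and not a bound.

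The size of the difference was compared between members as the change of 1 probe against the change of another on the same arrays, using the brighter *Krt8* probe and an exact permutation test over the 6 arrays (two-sided, 15 pairs). With 3 against 3 arrays such a test cannot give a p below 0.1, so no pair could pass the threshold. The log2 fold change of *Krt8* minus that of its partner *Krt18* was -5.77, and minus that of *Krt19* it was -5.80 (exact permutation p = 0.1 and p = 0.125 after adjustment over the 15 pairs, for both). The fold change of *Krt7* minus that of *Krt8*, the other type II keratin, was 3.28, at the same p. The *Krt8* probe stood well above background on 1 of 3 esophagus arrays, so the sizes of these 3 differences depend on how background was treated. Over the alternatives they ran from -7.68 to -4.94, from -7.79 to -5.01 and from 2.88 to 4.76. The fold change of *Krt18* minus that of *Krt19*, both type I, was -0.033 (exact permutation p = 1), and it ran from -0.29 to 0.26 when 1 array was left out. This does not show that they changed alike. The fold change of *Krt18* minus that of *Krt20* was -0.43 (exact permutation p = 0.6) and that of *Krt19* minus *Krt20* was -0.39 (exact permutation p = 0.5). Over the alternatives these ran from -1.03 to 0.53 and from -0.96 to 0.64, so their sign turned with the processing. The 12 other pairs all reached the smallest p the design allows, among them the 5 pairs that include *Krt23*.

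The spread between mice was also uneven. In stomach organoids the SD of *Krt18* was 0.11 and that of the brighter *Krt8* probe 0.12, and 83.2% and 81.7% of 24454 probes well above background on all 3 stomach arrays had an SD as large, with a median of 0.24. Quantile normalization holds values close at the bright end of the scale, where both probes lie. *Tff1*, for example, read 17.875 on all 3 stomach arrays. The probes compared were of every brightness, so these small SDs do not show that the 2 keratins varied little between mice. *Krt20* was the most variable member there, with a 2.20-fold range between mice and 8.29% of these probes as variable. In esophagus organoids the order was different. *Krt23* ranged 15.75-fold between mice, and 0.574% of 22815 probes well above background on all 3 esophagus arrays had an SD as large. *Krt19* ranged 3.74-fold (4.24% of probes as variable) and *Krt18* 2.40-fold (10.2%), against a median SD of 0.29.

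*Krt18* and *Krt19*, bright enough in the esophagus to fall as far as *Krt23*, did not do so on the array where it was low. *Krt7*, *Krt8* and *Krt20* read 7.40 or less in the esophagus, and the lowest value on that array was 3.93. A fall as large was therefore not possible for them. In the esophagus organoids of mouse 4, *Krt23* was 3.48 log2 units, or 11.17-fold, below the mean of the other esophagus arrays, and 89 of 22815 probes (0.39%) fell as far there. *Krt20* was 0.94 lower, *Krt7* 0.53 and *Krt19* 0.31, while *Krt18* was higher (-0.47 on the same scale). Among genes of cornified squamous cells, chosen after their values were seen, some were low on that array and some were not. *Lor*, a cornified envelope protein, read 14.44, 16.94 and 10.38 in the esophagus organoids of mice 1, 2 and 4, and *Sprr3*, another envelope protein, read 15.62, 15.19 and 11.62. *Ivl*, also an envelope protein, read 8.07, 6.90 and 7.90, lowest in mouse 2. The suprabasal keratin *Krt13* read 16.60, 16.85 and 16.41, and over all 10 squamous markers the mean was 13.99, 14.17 and 12.84. Whether these levels had a part in the *Krt23* values was not tested.

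**Figure D3:**
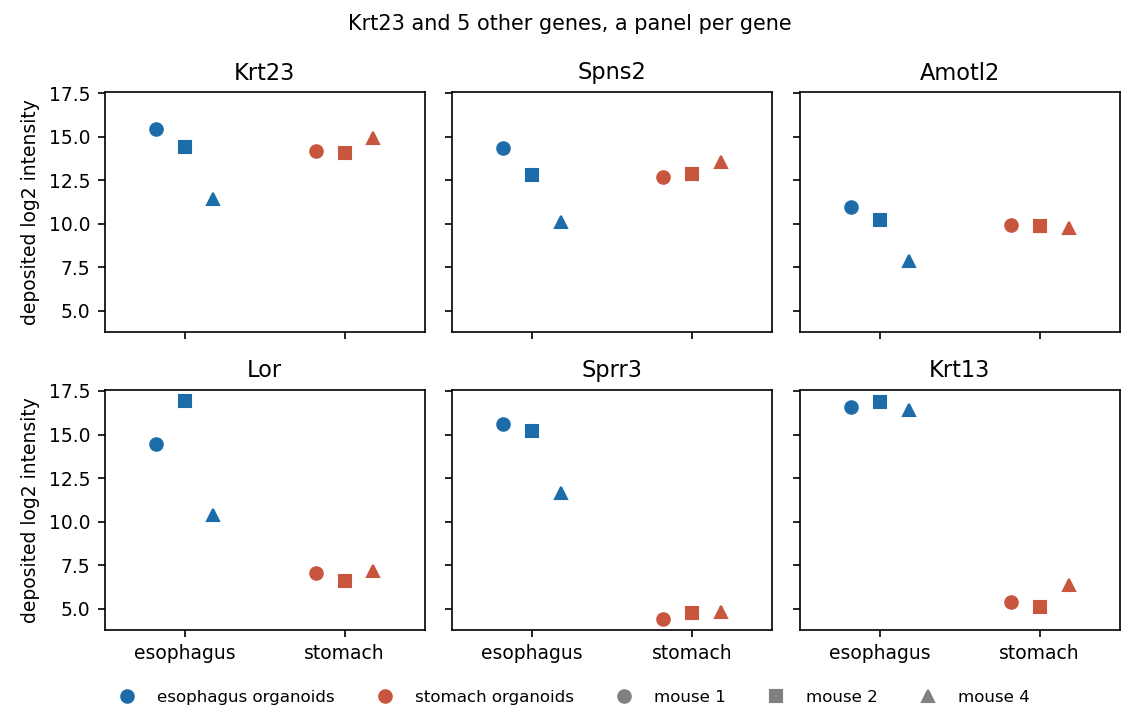
Deposited log2 intensity (vertical axis) of *Krt23*, of *Spns2* and *Amotl2*, whose profiles are the nearest to it, and of the squamous genes *Lor*, *Sprr3* and *Krt13*, in esophagus (blue) and stomach (red) organoids of mice 1, 2 and 4. The genes shown beside *Krt23* were picked for their values, and other squamous markers, such as *Krt14* and *Ivl*, were not lowest in the esophagus organoids of mouse 4. *Krt23* lies there 3.48 log2 units below the mean of the others, and *Krt13* is nearly level.

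For each member, the 2 genes nearest in profile were found by the root mean square distance between log2 values, each probe centred on its own mean over the 6 arrays, among the brightest probes of 15773 genes measured above background throughout at least 1 tissue. This distance is a description over 6 arrays, and for members with a large tissue difference it mostly reflects that difference. *Gata4*, *Anxa10*, *Vsig2* and *Cyp2c65* stayed at background on all 3 esophagus arrays. *Tmem171*, *Stxbp6* and the *Krt8* probe stood well above it on 1 of 3, and *Gcnt3*, *Slc44a4* and *Krt20* on 2 of 3. The distances and order that involve these genes thus rest in part on background values. *Krt8* was nearest to *Anxa10*, an annexin (distance 0.25), and *Vsig2*, a membrane protein of the immunoglobulin superfamily (0.25). *Krt7* was nearest to *Gata4*, a transcription factor of the foregut endoderm (0.21), and *Gcnt3*, an enzyme that builds mucin sugar chains (0.24). *Krt18* was nearest to *Tmem171* (0.26) and *Cmbl* (0.28), and *Krt19* to *Slc44a4* (0.23) and again *Tmem171* (0.25). *Krt20* was nearest to *Stxbp6* (0.31) and *Cyp2c65*, a cytochrome P450 (0.32). *Krt23* was nearest to *Spns2*, a sphingosine phosphate transporter, at a distance of 0.19. The log2 values of *Spns2* were 14.36, 12.78 and 10.09 in the esophagus and 12.71, 12.88 and 13.56 in the stomach, so mouse 4 was lowest among the esophagus and highest among the stomach arrays, as for *Krt23*. The next gene, *Amotl2*, was at 0.46. Among the members themselves the smallest distance was 0.37, between *Krt18* and *Krt19*, and the largest was 5.41, between *Krt8* and *Krt23*.

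The keratins of stratified epithelia examined, 20 in all, ran mostly the other way. Of 11 type II keratins of stratified epithelia, 5 were called higher in esophagus organoids, 2 higher in stomach organoids and 4 in neither, with a median log2 fold change of 1.19. Of 9 type I keratins of stratified epithelia, 7 were called higher in the esophagus and 2 were not called, with a median of 9.45. Of all gene names, 7.88% were called toward the esophagus and 8.33% toward the stomach. The basal pair *Krt5* and *Krt14* had log2 fold changes of 11.93 (standard error 0.17, limma adjusted p = 3.23e-08) and 11.30 (standard error 0.22, limma adjusted p = 1.01e-07). Of the suprabasal pair, *Krt4* had 7.96 (standard error 0.47, limma adjusted p = 2.34e-05), and *Krt13* went from 5.38, 5.12 and 6.35 in the stomach to the values above in the esophagus (limma adjusted p = 5.43e-07). *Krt6a*, *Krt6b* and *Krt17*, keratins of wounded and proliferative squamous epithelium, did not stand well above background on the stomach arrays. The esophagus level was an estimated 2800-fold as high for *Krt6a*, an estimated 2560-fold for *Krt6b* and at least 2640-fold for *Krt17*. *Krt6a* and *Krt6b* are close paralogs, so their probes may share signal. *Krt15*, *Krt16* and *Krt10* were higher by 9.79, 9.45 and 3.63 log2 units. In the stomach, *Krt5* and *Krt15* stood well above background on 1 of 3 arrays and *Krt4*, *Krt13* and *Krt14* on 2 of 3, so the sizes of their differences rest on values near background. The lowest log2 fold changes among the 26 keratins plotted were those of *Krt8* and *Krt7*, and among type I keratins those of *Krt18*, *Krt19* and *Krt20*. The stratified keratins called higher in the stomach, named after their values were seen, were *Krt79* (-2.47, limma adjusted p = 0.000194) and *Krt1* (limma adjusted p = 0.0421). *Krt1* stayed at background in the esophagus and was an estimated 1.89-fold higher in the stomach. Its log2 fold change was -0.92, with a 95% interval from -1.46 to -0.37. When each of the 6 arrays was left out in turn, the count of stratified keratins higher in the stomach was mostly 1. The exception was the fit without the esophagus organoids of mouse 1. The count was also 1 with the mouse as a block and 3 with 75th percentile scaling.

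**Figure D4:**
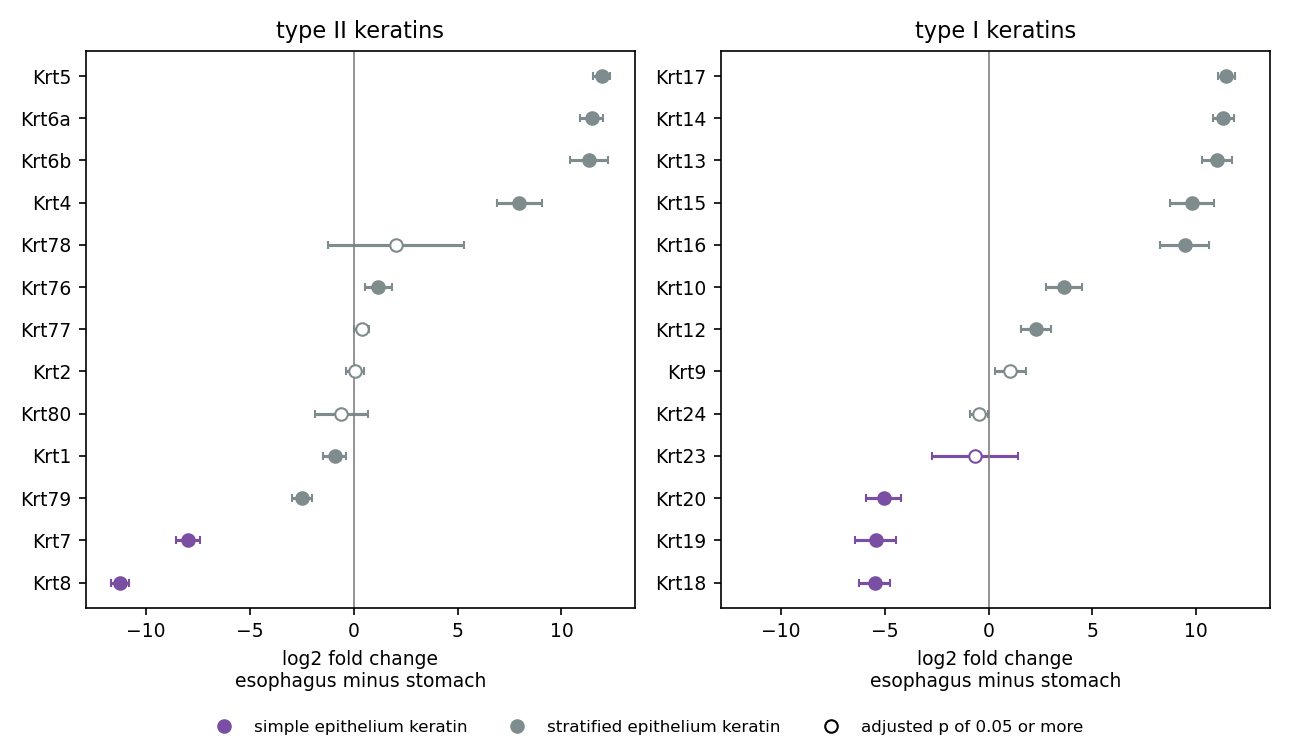
Log2 fold change, esophagus minus stomach (horizontal axis), of type II and type I keratins, each by its brightest probe, with 95% intervals from limma. Purple points are simple and grey points stratified epithelium keratins, and open points were not called. *Krt8*, *Krt7*, *Krt18*, *Krt19* and *Krt20* take the lowest places and *Krt23* lies at -0.64 with an interval across 0. For probes that are not well above background in one tissue the plotted fold is a fitted value and not a bound.

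Proteins that tie keratin filaments to cell junctions were described with the same fit. Of 16 linker and partner genes, 8 had a probe called higher in the esophagus, 2 had one called higher in the stomach (*Dst* in both directions, by probe) and 7 were not called, beside the shares of all gene names given for the stratified keratins. Higher in the esophagus were the desmosomal *Pkp1* (7.34), the cytolinker *Dst* (4.90), the keratin-binding adaptor *Sfn* (4.68) and the plakins *Evpl* (3.18) and *Ppl* (3.10). *Pkp2*, the plakophilin of simple epithelia and heart, was higher in the stomach, as were *Krt8* and *Krt18*. Its log2 values were 6.59, 7.70 and 8.24 in the esophagus and 11.82, 11.82 and 11.87 in the stomach, a log2 fold change of -4.33 (limma adjusted p = 0.000203). Of 13 other intermediate filament genes, 2 were called higher in the esophagus (*Nes*, 1.63, and *Lmna*, 1.39), 1 higher in the stomach (*Nefh*, -2.67) and 10 in neither. These 3 of 13 stand beside 16.2% of all gene names called in either direction, so the count is near the background. Without the esophagus organoids of mouse 1, 5 of these 13 were called. *Vim*, the filament of mesenchymal cells, stayed at background on all 6 arrays.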

How the data were processed

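Gene expression of 3 esophagus and 3 stomach organoid samples was measured on single-color Agilent arrays, read by the authors in Feature Extraction 11.5.1.1. The scanner files the authors deposited hold the raw intensity of 62976 spots per array, 3671 of them controls, and marks for spots above background, saturated or outlying. For the deposited log2 values the authors corrected the background and normalized the arrays by quantiles. The offset of that correction is not given in the sources used here. Normexp on the median intensities with an offset of 15 came within 0.0726 of every log2 value (median difference 0.00433), and all 2029 empty cells were spots marked as outliers. Each deposited column correlated best with the scanner file of its own sample.

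The deposited log2 values of spots of one probe were averaged and compared with lmFit and eBayes of limma 3.58.1 in R 4.3.3, without a block, over 55681 probes. The script was tested on simulated data. The labels give 1 mouse number to an array of each tissue, which was read as the same animal. Across probes, the deviations of the 2 arrays of a number from their tissue means had an r of 0.025, 0.0119 and -0.00787, and those of unlike numbers -0.0726 to 0.0405, so the data show no sign of pairing. A block for the mouse was tried as an alternative.

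Named were all member probes, genes of the keratin, linker and other filament lists past adjusted p under 0.05 with a log2 fold change beyond 3 (or the 3 largest of a list), and the 2 genes nearest to each member. The members and lists were chosen with earlier results of these data known. Besides leaving out each array, alternatives were scanner mean intensities with normexp (offset 16 or 50), the background-subtracted intensity scaled by the 75th percentile or by quantiles, outlier spots kept, a filter on dim probes, averaged probes, a robust eBayes with a trend, a block for the mouse or the slide, and the threshold of the methods (unadjusted p under 0.05 and 1.5-fold).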

Additional observations from a re-analysis of the deposited data

How the results depend on the processing

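Under every alternative run 5 of the 6 simple keratins were called higher in the stomach. Over the 16 alternatives that keep probes apart their log2 fold changes were -8.35 to -7.55 for Krt7, -12.99 to -10.43 and -12.57 to -8.71 for the 2 probes of Krt8, -5.71 to -5.07 for Krt18, -5.96 to -5.01 for Krt19 and -5.83 to -4.46 for Krt20. Krt23 was called under none (limma adjusted p 0.327 to 0.889) and ranged from -1.47 to 0.52 when 1 array was left out, with the sign turned to 0.52 without the esophagus organoids of mouse 4 and with the slide as a block. Of the 16, the filter on dim probes, the robust eBayes, the mouse block and the threshold of the methods left the fold changes of the members unchanged. The slide block repeated the fit without the esophagus organoids of mouse 4. The difference between Krt18 and Krt20 turned to 0.53 with 75th percentile scaling and 0.30 with quantile normalization of the background-subtracted intensity, and that between Krt19 and Krt20 to 0.64 and 0.37, while with an offset of 50 they were -1.03 and -0.96. With 1 array left out these ranged from -0.90 to 0.071 and from -0.81 to 0.13, and that between Krt18 and Krt19 from -0.29 to 0.26. With 1 array left out, the count of all called probes ranged from 4091 to 7415, that of stratified keratins higher in the stomach from 1 to 2, and that of other intermediate filaments from 2 to 5. Stratified keratins higher in the stomach also numbered 1 with an offset of 50, with the mouse as a block and with the slide as a block, and 3 with 75th percentile scaling. The replicate block (the mouse) gave 6153 called probes and 7 instead of 9 linker and partner genes, and changed no call of the members. With the unadjusted threshold of the methods, 10096 probes passed. 75th percentile scaling moved the median log2 fold change of all probes from 0.024 to 0.19. The causes of these differences were not tested. Signal over background limits the esophagus values of Krt8 and Krt20.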
